A study of Mus musculus with 3 samples.

Results

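The genes described here are 10 transcription factors and cofactors of the gonad, *Gata4*, *Gata6*, *Zfpm1*, *Zfpm2*, *Lhx9*, *Cbx2*, *Tcf21*, *Wt1*, *Sox9* and *Dmrt1*, of 21938 protein-coding genes in GENCODE M21. Peaks that touched a gene body, or lay no more than 100 kb before or after it, were assigned to that gene. By this rule the 10 genes took 14 of 5721 vehicle peaks and 12 of 4025 cAMP peaks. They fell on 21 separate sites, of which 5 were called in both lists, 9 only with vehicle and 7 only with cAMP. The shared part was 23.8%, beside 28.6% of the 7575 sites of the whole lists.

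The peaks mark Ad4BP/SF-1, the nuclear receptor encoded by *Nr5a1*, on the chromatin of mouse Leydig cells. The cells came from the testes of ICR males aged 9 weeks, pooled over several animals, enriched on a Percoll gradient and cultured, and were given either vehicle or cAMP. Each condition had 1 library, so no difference between vehicle and cAMP could be set against replicate error. The lists hold a position and a MACS score for each peak, which is the negative log10 of the p-value given by the peak caller, times 10, and the depth of the libraries is unknown. Because the score rises with depth, the place of a peak within its own list is given beside it for the peaks at the 10 genes. Where a list has no peak, Ad4BP/SF-1 may still have been bound, since only called peaks are listed and the lowest score, 50, stands for a p-value of 1e-05, stricter than the threshold named in the methods. The files hold no RNA levels, so the cell type could not be checked against its markers, and a peak from Leydig cells and a peak from other cells left in the preparation cannot be told apart.

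Gonadal cell types are set up by a small group of transcription factors that act with Ad4BP/SF-1. WT1, LHX9 and CBX2 act in the early bipotential gonad, where they are needed for its growth and for the expression of *Nr5a1* itself. GATA4 and GATA6 bind DNA at GATA motifs and work in Sertoli and Leydig cells with the cofactors FOG1 and FOG2, which are encoded by *Zfpm1* and *Zfpm2*. SOX9 and DMRT1 maintain the Sertoli fate, whereas TCF21 marks interstitial progenitors of the testis. The genes are therefore taken in groups, first the GATA factors and their cofactors, known from Leydig as well as Sertoli cells, then *Lhx9*, *Cbx2* and *Tcf21*, and last *Wt1*, *Sox9* and *Dmrt1* as Sertoli-cell genes.

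The sequences on which the account turns are shown first, as 120 bases of mm10 read on the + strand around a copy of the Ad4BP/SF-1 motif. Copies of the 8-letter motif, TCAAGGTC, TCAAGGCC, CCAAGGTC or CCAAGGCC on either strand, stand in capitals, and a copy on the other strand therefore reads GACCTTGA, GGCCTTGA, GACCTTGG or GGCCTTGG. The set begins with *Zfpm1*, which had the highest-scoring peak of the 10 genes, followed by a cAMP-only peak of the same gene for contrast. Then come 3 of the shared sites, the stronger *Cbx2* peak, and the vehicle peaks of *Wt1* and *Sox9*. The cAMP peaks of *Wt1* and *Dmrt1* hold no copy and are not shown.
*Zfpm1* intron 3, vehicle only, chr8:122312803-122312922, + strand: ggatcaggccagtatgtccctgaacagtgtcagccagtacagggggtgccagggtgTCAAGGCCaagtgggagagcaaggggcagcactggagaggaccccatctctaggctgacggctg
*Zfpm1* intron 1, cAMP only, chr8:122284312-122284431, + strand: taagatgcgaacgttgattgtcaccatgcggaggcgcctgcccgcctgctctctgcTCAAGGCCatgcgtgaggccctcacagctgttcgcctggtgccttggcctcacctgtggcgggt
*Gata4* window, *Fdft1* intron 3, both lists, chr14:63164778-63164897, + strand: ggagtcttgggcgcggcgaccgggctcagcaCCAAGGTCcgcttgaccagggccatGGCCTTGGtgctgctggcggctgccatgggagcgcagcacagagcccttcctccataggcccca
*Gata4* window, *Ctsb* intron 3, both lists, chr14:63134540-63134659, + strand: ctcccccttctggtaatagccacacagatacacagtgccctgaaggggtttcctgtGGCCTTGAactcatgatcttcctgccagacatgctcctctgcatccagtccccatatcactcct
*Zfpm2* intron 3, both lists, chr15:40792210-40792329, + strand: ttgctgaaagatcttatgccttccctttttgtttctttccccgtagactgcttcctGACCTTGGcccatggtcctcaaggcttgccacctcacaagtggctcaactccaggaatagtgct
*Cbx2* downstream, vehicle only, chr11:119067000-119067119, + strand: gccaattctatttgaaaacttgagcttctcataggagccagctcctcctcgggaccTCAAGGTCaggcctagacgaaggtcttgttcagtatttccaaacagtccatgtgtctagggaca
*Wt1* upstream, vehicle only, chr2:105100689-105100808, + strand: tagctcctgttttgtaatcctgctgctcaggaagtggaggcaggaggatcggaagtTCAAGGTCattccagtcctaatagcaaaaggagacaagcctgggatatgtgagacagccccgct
*Sox9* downstream, vehicle only, chr11:112803092-112803211, + strand: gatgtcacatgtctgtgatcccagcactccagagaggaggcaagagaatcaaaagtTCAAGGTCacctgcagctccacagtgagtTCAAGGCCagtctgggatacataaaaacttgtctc
The *Sox9* stretch holds a pair of copies in the same orientation, whose starts lie 29 bp apart. The *Fdft1* stretch holds a pair in opposite orientation, with starts 25 bp apart. In the other stretches a single copy is seen. The capitals show where these letters occur and not that the protein contacted them.

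Counted by gene, the vehicle list had a peak at 7 of the 10 genes (70%, 95% exact Clopper-Pearson interval 34.8% to 93.3%), beside 49.4% of all protein-coding genes. The cAMP list also had a peak at 7 of them, beside 41.3% of all genes. A peak of each list was found at 5 genes, *Gata4*, *Gata6*, *Zfpm1*, *Zfpm2* and *Wt1* (50%, interval 18.7% to 81.3%), beside 34.1% of all genes. *Lhx9* was the 1 gene with no peak of either list (10%, interval 0.253% to 44.5%), beside 43.3% of all genes. All these intervals include the share over all genes. The intervals cover counting error only, and with 10 genes they are wide.

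**Figure D1:**
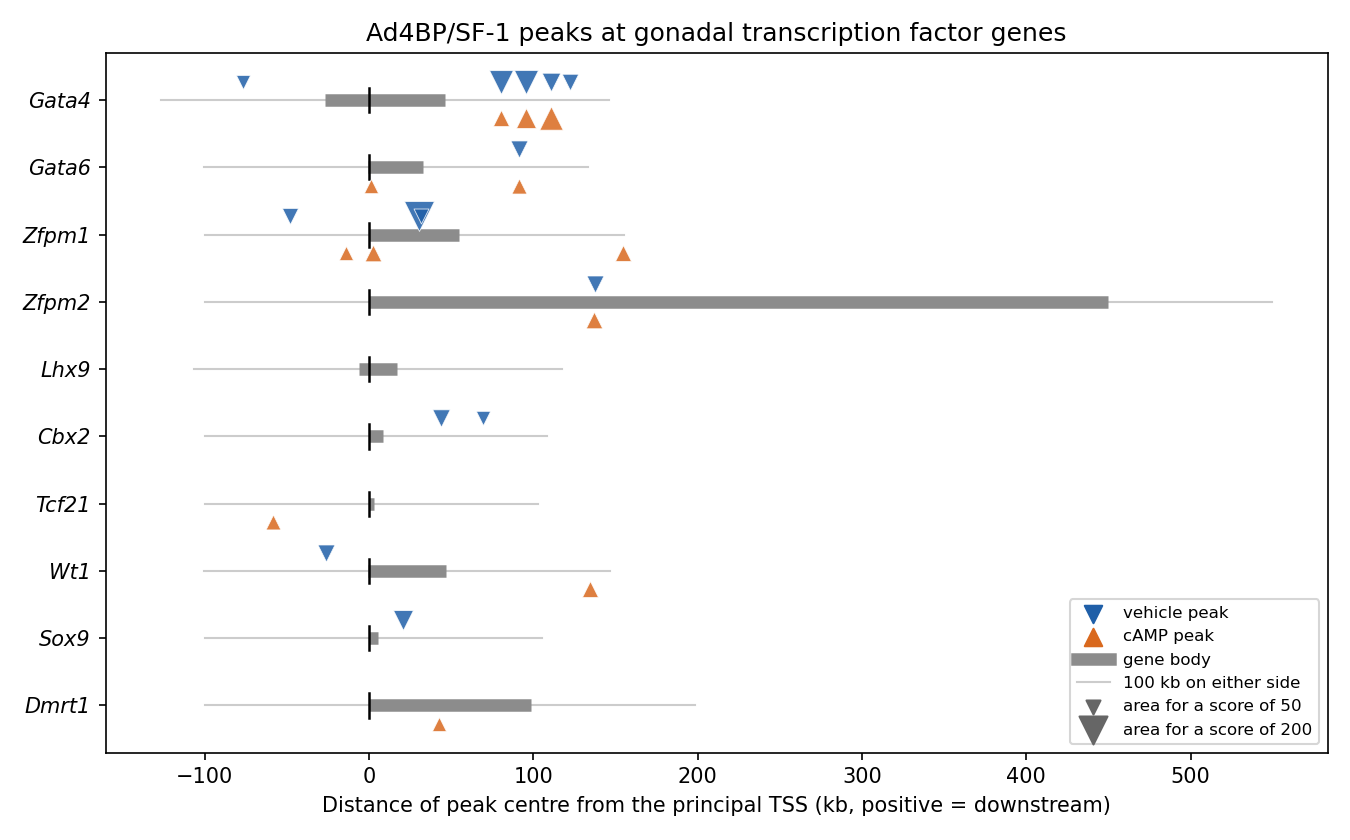
Position of each peak at the 10 genes, with the distance of the peak centre from the principal transcription start site (TSS) in kb on the x axis and a row for each gene. Blue triangles are vehicle peaks and orange triangles cAMP peaks, with an area in proportion to the MACS score. Grey bars are gene bodies and thin lines the 100 kb on either side. The peaks gather at *Gata4* and *Zfpm1*, and *Lhx9* has none.

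No peak had its centre within 1 kb of a start site of the gene it was assigned to. The smallest distance of a peak centre from a start site of the gene itself was 20.9 kb in the vehicle list, at *Sox9*, and 1.01 kb in the cAMP list, at *Gata6*. Of the 14 vehicle peaks 1 had its centre within 1 kb of any coding start site, and that start belongs to *Ctsb*. Of the 12 cAMP peaks 0 did. Over all peaks the shares were 10.7% and 8.70%, so counts this low do not set these peaks apart. The median distance to the nearest coding start site was 24.1 kb for the vehicle peaks and 20.7 kb for the cAMP peaks, compared with 14.5 kb and 16.2 kb over all peaks. Inside the body of the gene it was assigned to lay 3 vehicle peaks and 4 cAMP peaks. Another 5 vehicle and 6 cAMP peaks lay in a different coding gene, and 6 and 2 were intergenic. Over all peaks 61.0% of the vehicle list and 58.7% of the cAMP list lay in a coding gene. The assigned gene had the nearest start site for 7 vehicle and 7 cAMP peaks, so the other peaks have a nearer candidate than the gene described here.

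*Gata4* is a zinc finger factor needed for early gonad formation and for steroidogenic gene expression, and its window held the most vehicle peaks of the 10, with as many cAMP peaks as that of *Zfpm1*. There were 5 vehicle and 3 cAMP peaks, numbers that 3.46% and 6.89% of all coding genes reached. The gene lies at chr14:63198922-63271692 on the - strand, and 4 of its 5 sites lie beyond its 3′ end, in or beside other genes. The nearest of these sites to the gene, in intron 3 of *Fdft1*, the squalene synthase gene, had a vehicle peak at chr14:63164484-63165184 with a score of 144.52, rank 678 of 5721. Its cAMP counterpart scored 66.83, rank 2085 of 4025, and the centres were 64 bp apart. So 88.1% of vehicle peaks but 48.1% of cAMP peaks scored below this site.

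The next site, in intron 9 of *Fdft1*, had a vehicle score of 147.78 (rank 647) and a cAMP score of 102.18 (rank 888), with centres 28 bp apart. It held a pair of motif copies 63 bp apart. The site in intron 3 of *Ctsb*, which encodes the lysosomal protease cathepsin B, had the higher place in the cAMP list. It scored 87.85 with vehicle (rank 1928) and 139.78 with cAMP (rank 413), so that 66.3% of vehicle peaks and 89.7% of cAMP peaks scored lower. The 3 shared sites at *Gata4* thus had a different order of scores in each list. The lists differ in length and their depth is unknown, so a different place in a list does not show a change in binding.

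The other peaks at *Gata4* were called with vehicle only. A peak of score 69.35 (rank 3125) lay in intron 1 of *Ctsb*, 0.328 kb from the *Ctsb* start site and 90.8 kb from the nearest start site of *Gata4*. The only *Gata4* peak for which *Gata4* itself was the nearest coding gene lay at chr14:63321794-63322198, 50.3 kb upstream of its outermost start site. This peak scored 51.02 (rank 5535), close to the lowest score of the list, which was 50. It was the 1 vehicle peak of the 14 without the 8-letter motif, and the nearest cAMP peak lay 157 kb away. The peaks nearer to *Ctsb* and *Fdft1* count for *Gata4* only by distance. The paper counts *Fdft1* itself among the cholesterol synthesis genes bound by Ad4BP/SF-1. In Y-1 cells its reporter with an *Fdft1* peak region was less active after knockdown of Ad4BP/SF-1.

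*Gata6*, the other GATA factor of adult steroidogenic cells, had no other coding gene in its window. The shared site lay 91.7 kb downstream of the principal start site and 58.5 kb beyond the gene. It scored 74.79 with vehicle (rank 2680) and 58.01 with cAMP (rank 2839), and the peak centres were 12 bp apart, the closest agreement of the 5 shared sites. The cAMP list alone had a peak within exon 2, 1.01 kb from the nearest start site, with a score of 52.09 (rank 3625). That peak was the nearest to a start site of its own gene among all peaks of the 10 genes, and 9.91% of cAMP peaks scored lower. The nearest vehicle peak was 89.6 kb away.

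*Zfpm1* encodes FOG1, a multi-zinc-finger cofactor that binds the amino-terminal finger of GATA factors. Its 6 sites were the most of any of the 10 genes and none was shared. The vehicle peak at chr8:122312528-122313231, in intron 3 and 30.7 kb downstream of the start site, scored 229.22 and took rank 202 of the vehicle list. No cAMP peak overlapped it, and the nearest was 27.9 kb away. Of the 202 vehicle peaks that scored at least as high, 191 (94.6%) had a cAMP counterpart. Among the 3554 vehicle peaks without a counterpart this peak took rank 11. Its motif copy, TCAAGGCC, lay 16 bp from the peak centre, as seen in the first sequence above.

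A second vehicle peak in the same intron, 31.9 kb from the start site, scored 57.36 (rank 4470) and held a pair of motif copies 47 bp apart. The last vehicle peak lay 47.8 kb upstream with a score of 67.09 (rank 3336). The cAMP list had its own peaks at *Zfpm1*. In intron 1, 2.29 kb from the start site, a cAMP peak scored 69.94 (rank 1884). Upstream by 14.1 kb a peak scored 51.63 (rank 3703) and lacked the motif. The last, with a score of 65 (rank 2213), lay in *Mvd*, a gene of the mevalonate pathway, and 3.83 kb from the start site of *Cyba*. Its centre was 99.5 kb past the end of *Zfpm1*, just within the 100 kb limit. Among genes left without a peak in a list, the nearest peak beyond the limit was a cAMP peak 112 kb from *Cbx2*. *Gm20388*, annotated as a coding gene that overlaps *Zfpm1*, covers all 6 sites, and each lies in its intron 1.

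*Zfpm2* encodes FOG2, the partner of GATA4 in testis determination. With a body of 450 kb it is the longest of the 10 genes, no other coding gene lay in its window, and it had a single site. The vehicle peak at chr15:40792115-40792580 scored 74.01 (rank 2728) and the cAMP peak 69.61 (rank 1912). They shared 397 bp and lay in intron 3, 137 kb from the principal start site. The site held nearly the same place in each list, with 52.3% of vehicle peaks and 52.5% of cAMP peaks scoring lower.

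**Figure D2:**
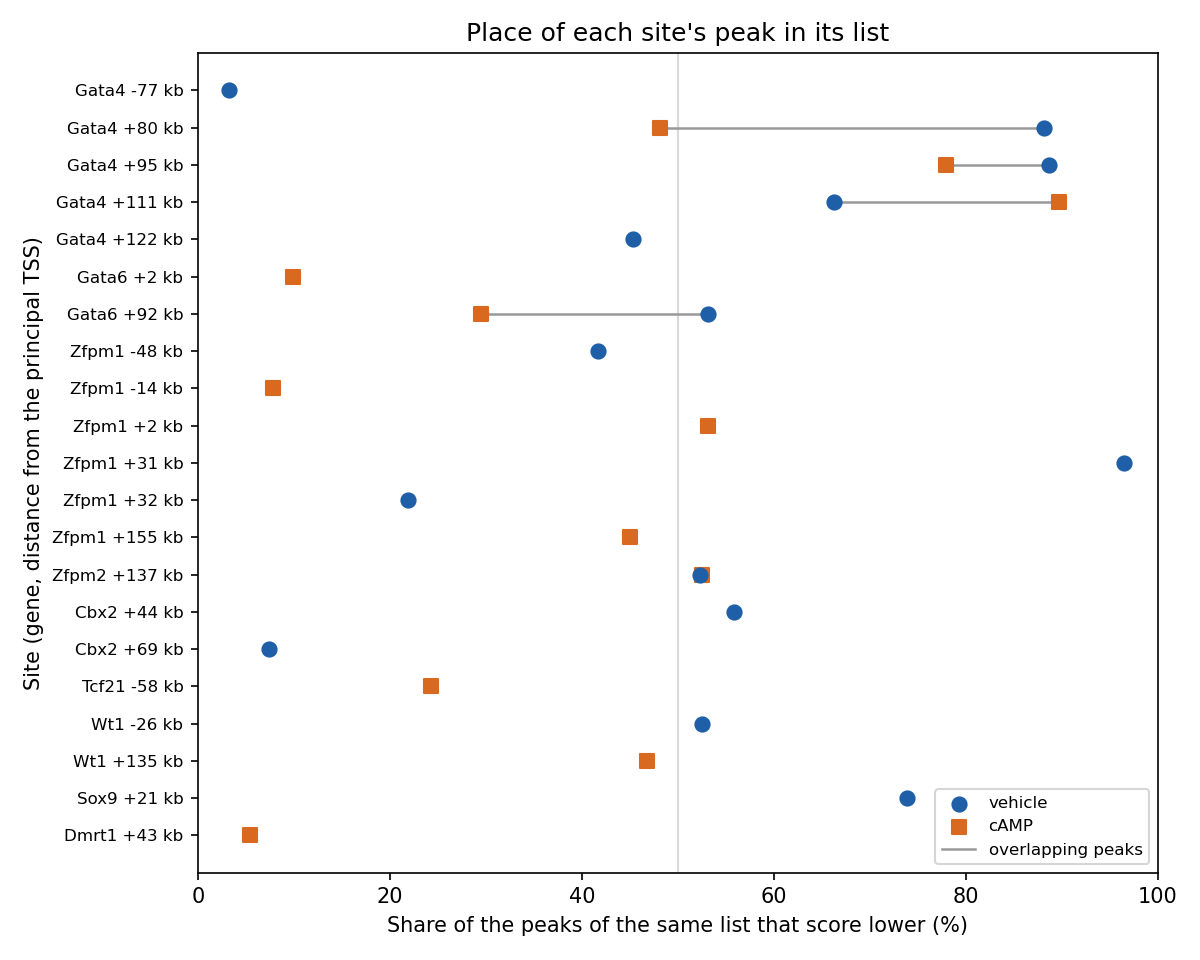
Place of each of the 21 sites within its list, as the share of that list's peaks that score lower (x axis, %), for vehicle (blue circles) and cAMP (orange squares). A line joins overlapping peaks. The 5 joined sites belong to *Gata4*, *Gata6* and *Zfpm2*. The *Zfpm1* site at +31 kb is farthest to the right, at 96.5%, and has no cAMP square.

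Among the genes of the early gonad, *Lhx9*, a LIM homeobox factor, had no peak within 361 kb. The nearest vehicle peak beyond that distance scored 57.69, and the nearest cAMP peak, 648 kb away, scored 92.68. *Cbx2*, a Polycomb protein whose loss causes sex reversal, had a pair of vehicle peaks downstream. The nearer one, at chr11:119066748-119067257, scored 77.4 (rank 2523) and lay 44.0 kb from the *Cbx2* start site. The other scored 52.26 (rank 5299) and lay 69.4 kb from it. *Cbx2* did not have the nearest coding start site for either peak. The cAMP list had no peak at *Cbx2*, the nearest being 112 kb from the gene. *Tcf21*, a basic helix-loop-helix factor, had only a cAMP peak, 58.4 kb upstream, with a score of 56.39 (rank 3046). It held no copy of any motif searched, and the nearest vehicle peak was 143 kb from the gene.

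Each of the Sertoli-cell genes had a site. None of their 4 sites was shared between the lists, beside 28.6% shared over all sites, and 4 sites are too few to set this apart. *Sox9*, which directs Sertoli cell differentiation, had the highest-scoring peak of the group. This vehicle peak at chr11:112802824-112803474 lay 20.9 kb downstream of the start site, and *Sox9* was the nearest coding gene. It scored 100.75 (rank 1493), and 73.9% of vehicle peaks scored lower. The cAMP list had no overlapping peak, whereas 68.2% of the vehicle peaks that scored at least as high had one. The nearest cAMP peak to the gene lay 209 kb on the 3′ side. On the 5′ side the nearest peaks were 2515 kb away with vehicle and 950.2 kb with cAMP.

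*Wt1*, a zinc finger factor of the early gonad and of adult Sertoli cells, had a peak of each list, 160 kb apart. The vehicle peak at chr2:105100452-105100898 scored 74.24 (rank 2717), 25.9 kb upstream of the gene body, though the start of *Gm11060* was nearer, at 8.66 kb. The cAMP peak scored 66 (rank 2141) and lay in intron 1 of *Them7*, 88.0 kb past the end of *Wt1*, without the SF-1 motif. *Dmrt1*, a DM domain factor that keeps Sertoli cells from taking an ovarian fate, had only a cAMP peak. This peak at chr19:25548155-25548503 lay in intron 3 and scored 51.08 (rank 3798), so that 5.37% of cAMP peaks scored lower. It had no SF-1 motif, and the nearest vehicle peak lay 115 kb from the gene.

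Set side by side, the GATA factors and their cofactors had 14 sites with 5 shared (35.7%, interval 12.8% to 64.9%), in windows of 1.41 Mb. All 4 had peaks in both lists, beside 34.1% of all coding genes. Of the 5 shared sites 3 were those at *Gata4*, which lie in *Ctsb* or *Fdft1* with a nearer start site than that of *Gata4*. Counting only peaks for which the gene has the nearest start site, the GATA group had 9 sites and the Sertoli-cell genes 2. *Gata4* then had 0 cAMP peaks. The Sertoli-cell genes had 4 sites and 0 shared in 0.751 Mb, and *Lhx9*, *Cbx2* and *Tcf21* had 3 sites and 0 shared in 0.635 Mb. For 0 of 4 and 0 of 3 the intervals reach 60.2% and 70.8%. Over the whole lists 28.6% of 7575 sites were shared, a share within the interval of every group. Per Mb, the GATA group held 7.09 vehicle and 6.38 cAMP peaks, whereas the Sertoli-cell genes held 2.66 of each. The windows of all coding genes held 2.85 and 1.95. Much of the vehicle difference lay at *Gata4*, since without it the other 3 genes of the group held 4.39 vehicle and 5.27 cAMP peaks per Mb. Highest scores did not divide the groups cleanly, because the *Sox9* peak scored above every peak of *Gata6* and *Zfpm2*. The median vehicle score was 74.4 for the 10 peaks of the GATA group, and the Sertoli-cell genes had a pair of peaks at 74.24 and 100.75. The groups hold few genes and their difference was not tested.

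Of the vehicle peaks at the 10 genes 5 of 14 had a cAMP counterpart (35.7%, interval 12.8% to 64.9%), beside 37.9% of all vehicle peaks. Of the cAMP peaks 5 of 12 had a vehicle counterpart (41.7%, interval 15.2% to 72.3%), beside 53.8% of all cAMP peaks. Both intervals include the share over all peaks. A counterpart was found more often for peaks of high score over the whole lists. It was found for 22.2% of vehicle peaks with a score of 50 to 75, and 2 of 8 at the 10 genes, and for 57.0% of those with 100 to 150, and 2 of 3 at the 10 genes. At 150 and above the share was 83.5%, and the *Zfpm1* intron 3 peak was the 1 peak of this class at the 10 genes. In the cAMP list 37.3% of the peaks with a score of 50 to 75 had a counterpart, and 3 of 10 at the 10 genes. Peaks with a score of 50 to 75 made up 8 of 14 vehicle and 10 of 12 cAMP peaks at the 10 genes, beside 53.4% and 59.7% of the lists. The median was 74.5 for vehicle, beside 72.4 over the list, and 65.5 for cAMP, beside 67.9. Above the median of their list lay 9 of 14 vehicle and 4 of 12 cAMP peaks.

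**Figure D3:**
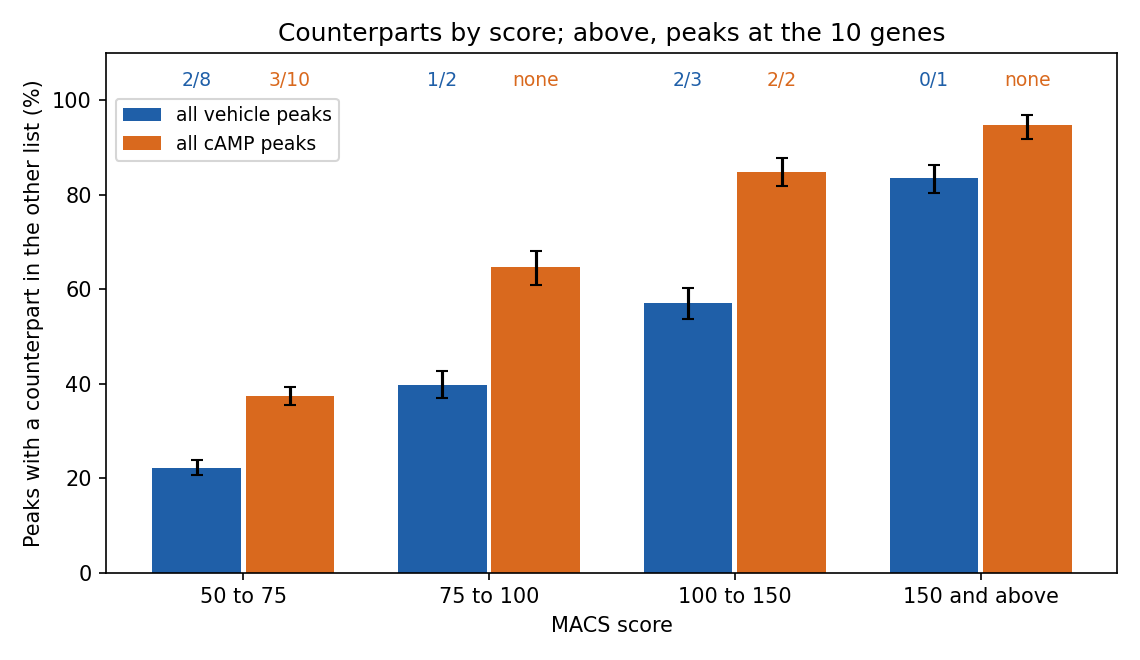
Share of peaks with a counterpart in the other list (y axis, %) by class of MACS score (x axis), for all vehicle peaks (blue) and all cAMP peaks (orange), with 95% exact Clopper-Pearson intervals. The fractions above the bars count peaks at the 10 genes with a counterpart. The share rises with the score, from 22.2% to 83.5% for vehicle, and the 1 vehicle peak of the highest class at these genes has none.

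The 8-letter motif was present in 13 of 14 vehicle peaks (92.9%, interval 66.1% to 99.8%), beside 80.4% of all vehicle peaks. It was present in 7 of 12 cAMP peaks (58.3%, interval 27.7% to 84.8%), beside 77.1% of all cAMP peaks. The intervals of the lists overlap, and each includes the share over all peaks. All 5 shared sites held it. Of the vehicle peaks without a counterpart 8 of 9 did, beside 75.2% of all such peaks. Of the cAMP peaks without a counterpart 2 of 7 did (28.6%, interval 3.67% to 71.0%), beside 63.6% of all such peaks, a share within that interval. The 2 were those in *Gata6* exon 2 and *Zfpm1* intron 1, so the cAMP peaks at *Tcf21*, *Wt1* and *Dmrt1* and the remaining ones at *Zfpm1* lacked it. Over all peaks, too, the share was lower among cAMP peaks without a counterpart than among those with one, where it was 88.7%. The share in promoters of the same length as the central part of the peaks, 300 bp, was 5.73% in RefSeq on GRCm38, and 78.0% of vehicle and 74.98% of cAMP peaks held the motif in that central part.

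**Figure D4:**
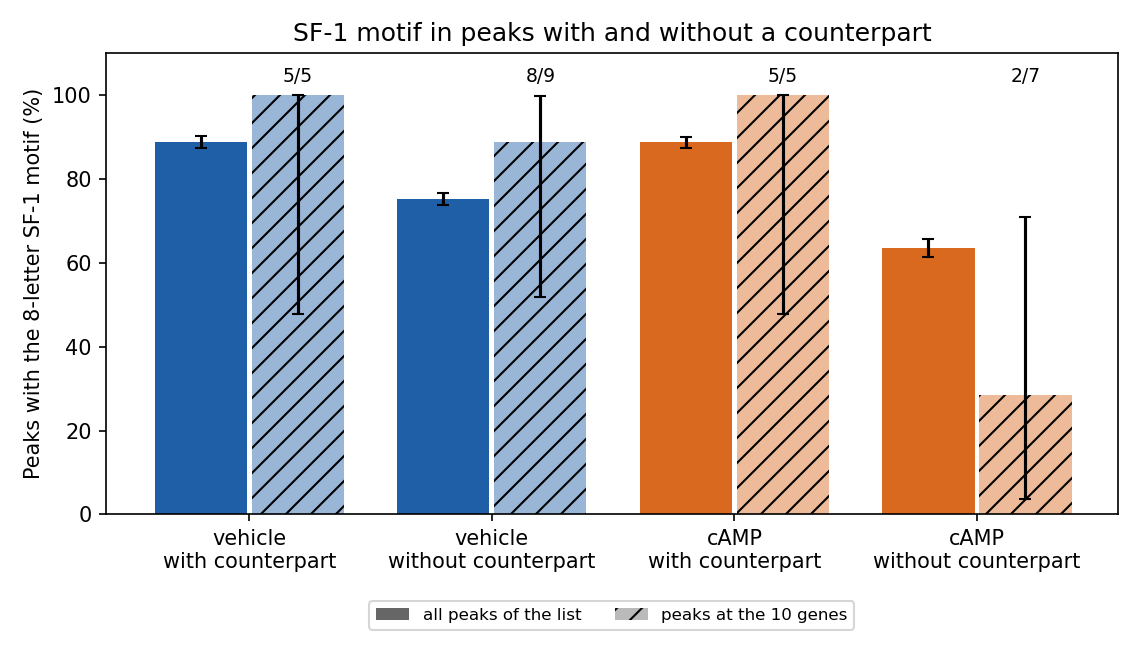
Share of peaks with the 8-letter SF-1 motif (y axis, %) for peaks with and without a counterpart in the other list, in all peaks (plain bars) and in peaks at the 10 genes (hatched bars), with 95% exact Clopper-Pearson intervals. Fractions count the peaks at the 10 genes. The cAMP peaks without a counterpart stand lowest, at 63.6% of all and 2 of 7 at these genes.

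The genome sequence marks repeats in lower case, and the copies of the motif were read against this mark. In 5 of the 13 vehicle peaks with the motif every copy lay in marked repeats, beside 35.8% of all vehicle peaks with the motif. These were the peaks at *Wt1*, *Sox9*, *Gata6*, *Ctsb* intron 3 and the weaker *Cbx2* site. Both vehicle peaks at Sertoli-cell genes thus had the motif only within repeats, including the pair of copies at *Sox9*. The *Zfpm1* intron 3 copy and the *Zfpm2* copy lay outside them. Over the vehicle list a counterpart was found for 44.6% of the peaks with the motif only in repeats and for 40.3% of those with a copy outside. In the cAMP list the order was the other way, with 59.8% and 63.4%. Of the 7 cAMP peaks with the motif at the 10 genes 2 had it only in repeats, beside 39.99% of all cAMP peaks with the motif. Reads that mapped to more than 1 place had been discarded by the authors, and the part of repeats in these peaks was not tested.

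GATA motifs, taken as the letters GATA with A or T before them and A or G after them on either strand, were searched because these genes encode GATA factors and their cofactors. They were found in 5 of 14 vehicle peaks (35.7%, interval 12.8% to 64.9%), beside 58.7% of all vehicle peaks, and in 8 of 12 cAMP peaks (66.7%, interval 34.9% to 90.1%), beside 56.2% of all cAMP peaks. The cAMP peak at *Wt1*, which lacked the SF-1 motif, held 3 copies, and the peak at *Dmrt1* held 1. The strong *Zfpm1* intron 3 peak, the *Zfpm2* site and the *Sox9* peak held none. In the central 300 bp GATA motifs were found in 41.2% of all vehicle peaks and in 29.8% of promoters. The AP-1 motif TGANTCA was found in 4 of 14 vehicle and 4 of 12 cAMP peaks, beside 21.6% and 23.2% of all peaks. The cAMP response element, searched as its 8-letter palindrome, was found in 0 of 14 and 0 of 12, for which the intervals reach 23.2% and 26.5%, beside 0.699% and 0.770% of all peaks. A shorter form of the SF-1 motif, without its first letter, lies within every 8-letter copy and was present in all 14 vehicle peaks and in 8 of 12 cAMP peaks, beside 83.8% and 79.98% of all peaks. None of the other motifs contains it. Promoter sequences were found for 3 of the 10 genes, *Zfpm1*, *Lhx9* and *Tcf21*. None of the 3 held the SF-1 motif, and none of the 10 genes had a peak centre within 1 kb of its own start site.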

How the data were processed

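Ad4BP/SF-1 ChIP-seq was carried out on mouse Leydig cells given vehicle or cAMP, with 1 library per condition. An input DNA library was not analysed here. The authors mapped reads to mm10 with Bowtie (0.12.8 per the labels), left out reads with several positions and called peaks with MACS. Whether the input served as control is not given in the sources used here. The deposited score of each peak was computed by the authors' peak caller as the negative log10 of a p-value, times 10. No deposited score lies below 50, which is a stricter limit than the p-value threshold in the study's methods, and read numbers are not part of the peak lists, so depth is unknown.

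Peaks were assigned to GENCODE M21 coding genes within 100 kb. Distances are from the start site of the principal transcript, or, for the nearest, smallest and outermost distances and for counts within 1 kb, from the start of any coding transcript. A counterpart is a peak of the other list that shares at least 1 bp. Overlaps and motifs were computed with Python 3.11.15, pandas 2.3.3 and numpy 2.4.6, checked with bedtools 2.31.1 and tested on simulated data, and plots were drawn with matplotlib 3.10.9. The genome was indexed with samtools 1.23.1. Exact Clopper-Pearson intervals (95%, scipy 1.17.1) cover counting error only. No test between conditions was possible. Coordinates count from 1.

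The 10 genes, the wider list and the motifs were chosen with earlier results of these data known. Genes named are the 10 genes, coding genes that contain or have the nearest start site to their peaks, and, of the wider list, those with a peak, with values for the 5 with the highest-scoring peak and likeness by numbers of peaks. Values of some genes under this rule are not reported here. The split of motifs by counterpart and by repeat mark was added after the values had been seen. Alternatives were other windows, stricter scores, equal list lengths, other overlap rules and a shorter motif.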

Additional observations from a re-analysis of the deposited data

How the results depend on the processing

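Of 76 recomputed values 31 stayed within the limits set for them and 45 moved, most of them because a smaller window or a higher score leaves fewer peaks. There was no replicate to leave out, and no paired analysis was possible because each condition had 1 library. With the gene body alone, as with 10 kb on either side, 2 genes had a vehicle peak, 4 a cAMP peak and 2 a peak of each list, from 3 vehicle and 4 cAMP peaks, with 5 sites in the GATA group and 1 in the Sertoli-cell group. With 50 kb, 3 genes had a peak of each list, with 9 vehicle and 7 cAMP peaks and 9 sites in the GATA group. With 200 kb, 8 genes had a peak of each list. With a score of at least 75, 4 genes had a vehicle peak, 1 a cAMP peak and 1 both, from 6 vehicle and 2 cAMP peaks, with 4 sites in the GATA group and 1 in the Sertoli-cell group. The 2 cAMP peaks (100%) then had a counterpart, and 100% of peaks in either list held the motif. With at least 100, 3, 1 and 1 genes remained, from 4 vehicle and 2 cAMP peaks, with 4 sites and 1 site. Again 100% held the motif, but only 1 of the 2 cAMP peaks (50%) had a counterpart. Counting only peaks for which the gene has the nearest start site, 3 genes had a peak of each list, with 7 vehicle and 7 cAMP peaks, 9 sites in the GATA group and 2 in the Sertoli-cell group. The motif share of the vehicle peaks also came to 100% with lists of equal length (11 peaks) and with the 7-letter motif (14 peaks). The shares over all coding genes given above are for the 100 kb window and peaks of any score. Gene counts at other settings therefore have no background beside them and do not show whether these genes stand apart. Unknown depth limits every statement about a peak missing from a list.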

Other observations

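A wider list of 28 gonadal transcription factor genes was read in the same way. Of these, 11 (39.3%, exact Clopper-Pearson interval 21.5% to 59.4%) had a vehicle peak, beside 49.4% of all coding genes, and 9 (32.1%) had a cAMP peak, beside 41.3%. A peak of each list was found at 6 (21.4%), beside 34.1%, and 14 (50%) had none, beside 43.3%. The intervals of these shares include the share over all genes. They had 27 sites, of which 9 were shared. The windows held 3.18 vehicle and 2.55 cAMP peaks per Mb, beside 2.85 and 1.95 in the windows of all coding genes. The genes with a peak included *Sox4*, *Gata2*, *Runx1*, *Irx5*, *Hes1*, *Hey1*, *Gli1*, *Nr5a1*, *Dmrt3*, *Tcf3* and *Id2*, and the peak counted for *Dmrt3* is the one in *Dmrt1* intron 3.

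The highest score of the wider list belonged to *Hes1*, a target of Notch signalling, with 318.73 for vehicle (rank 82). The overlapping cAMP peak, 25.3 kb downstream of the *Hes1* start site, scored 139.74 (rank 414). *Nr5a1*, the gene of Ad4BP/SF-1 itself, had a vehicle peak of 314.86 (rank 87) at -6.97 kb from its start site, and the overlapping cAMP peak scored 59.77. A second cAMP peak in the *Nr5a1* window, which had no counterpart and lay nearest to *Psmb7*, scored 64.5 (rank 2239). *Id2*, an inhibitor of basic helix-loop-helix factors, had 82.68 for vehicle (rank 2203) and 103.49 for cAMP (rank 860) at a shared site nearest to *Kidins220*. The *Zfpm1* intron 3 peak, at 229.22, lay among these scores, but the vehicle peaks given here for *Hes1*, *Nr5a1* and *Id2* had a cAMP counterpart.

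By the numbers of vehicle and cAMP peaks, *Gata6* (1 and 2) was most like *Nr5a1*, and *Zfpm2* and *Wt1* (1 and 1) were most like *Tcf3*, without a difference in numbers. *Gata4* (5 and 3) differed by 1 peak from *Id2* (4 and 3), and *Zfpm1* (3 and 3) by 1 peak from *Hes1* and *Id2*. *Sox9*, with 1 vehicle peak, was matched by *Sox4*, *Runx1*, *Hey1* and *Gli1*, and *Cbx2* differed from these by 1 peak. *Tcf21* and *Dmrt1*, with 1 cAMP peak, were matched by *Gata2*, *Irx5* and *Dmrt3*. The likeness rests on 2 lists and on peak numbers alone.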
